A study of Mus musculus with 8 samples.

Results

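The Zfp genes are mouse genes whose symbol is Zfp followed by a number. They were taken as all genes with such a symbol in the annotation of the arrays, and kept if 4 or more arrays showed a probe above the negative control spots in either channel. Of 337 such genes on the arrays, 253 were kept and 84 were not, and these 253 stand among 12350 genes of any name that passed the same filter. The cells were LLC1, a line from a Lewis lung carcinoma of C57BL/6 mice, and RNA was taken 4 h after X-rays. Each array carried RNA of irradiated cells in Cy5 beside RNA of untreated LLC1 cells in Cy3. The irradiated cells had received 2 Gy at once (3 arrays), 10 Gy at once (2 arrays, with the third replicate not analysed here) or 5 fractions of 2 Gy, written 5x2 Gy (3 arrays), which add up to 10 Gy. All groups come from 1 cell line in culture, and the labels count the arrays of a regimen as biological replicates without saying how the cultures were kept apart or how far apart the fractions were given.

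Most Zfp genes encode proteins with tandem C2H2 zinc fingers, each finger a short loop held by a zinc ion that reads a few bases of DNA. Many of these proteins also carry a KRAB box, which recruits the corepressor Trim28 and, through it, the histone methyltransferase Setdb1, and which silences retroelements and keeps imprints. A smaller group has other fingers and other jobs: the ZFP36 proteins bind AU-rich elements of mRNA and call in deadenylases, and others are ubiquitin or SUMO ligases, ribosome factors or spindle proteins. Messages of zinc finger genes are often short-lived, and ionising radiation is known to activate p53, which has a few Zfp genes among its targets.

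The symbol is the only thing the 253 genes share by rule. Their signals were low: the median of the mean log2 signal over both channels was 9.12, against 10.19 for all genes tested. On all 8 arrays, 208 of them had a channel above background, 10 stood at the limit of 4 arrays (among them Zfp395 and Zfp260) and 8 just missed it with 3 (among them Zfp185 and Zfp449). By their headers the arrays came from 2 slides. The first of the 10 Gy replicates shared slide 1 with all 2 Gy arrays, and the other shared slide 2 with all 5x2 Gy arrays. Over the 253 genes, Pearson's r between arrays was 0.664 to 0.815 within 2 Gy, 0.834 to 0.903 within 5x2 Gy and 0.336 for the 10 Gy pair. Between 10 Gy replicate 2 and its slide mates, which had 5x2 Gy, r was 0.748 to 0.831, a description over genes measured on the same arrays. Results for 10 Gy therefore rest on a pair of unlike arrays. Of the cell type markers, Krt8, Krt18 and Krt19 were above background and Epcam and Cdh1 were not, all 4 mesenchymal markers were above it, and of the leukocyte markers given here Cd68 and Cd3e were above it while Ptprc and Itgam were not. Of the endothelial markers, Cdh5 was above it and Pecam1 and Kdr were not. A dye effect of a single gene is part of every ratio, since Cy5 always held the irradiated RNA, and it cannot be told apart from an effect of radiation, nor can fewer cells with a transcript from less of it per cell.

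Irradiation moved Zfp genes in both directions, more of them down than up in each regimen, and the changes were mostly under 2-fold. However, the split after 2 Gy turned under other scalings and with slide as a fixed block. It also turned with the mean of a gene's probes, without the filter for signal and without 2 Gy replicate 2. In what follows a gene rose or fell if its mean log2 ratio of irradiated over untreated cells differed from 0 at a Benjamini-Hochberg adjusted p under 0.05 over all genes tested (limma). After 2 Gy, 14 Zfp genes rose and 20 fell, which is 5.53% and 7.91% of the 253, against 9.05% of all genes that rose and 8.34% that fell. After 10 Gy, 22 rose and 46 fell, or 8.7% and 18.2%, against 12.7% and 17.0% of all genes. After 5x2 Gy, 35 rose and 64 fell, or 13.8% and 25.3%, against 17.9% and 23.6% of all genes. The share that fell was thus near that of all genes in every regimen, and the share that rose was below it, with no test of either difference. With slide as a fixed block the order of the shares that rose turned after 2 Gy. A change of at least 2-fold was reached by no Zfp gene after 2 Gy, by 2 that rose and 3 that fell after 10 Gy, and by 4 that fell after 5x2 Gy, where the increase of Zfp30 is only known to be at least 1.94-fold. Among those called, the median log2 difference was 0.51 up and -0.47 down after 2 Gy, 0.53 and -0.61 after 10 Gy, and 0.57 and -0.55 after 5x2 Gy.

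**Figure D1:**
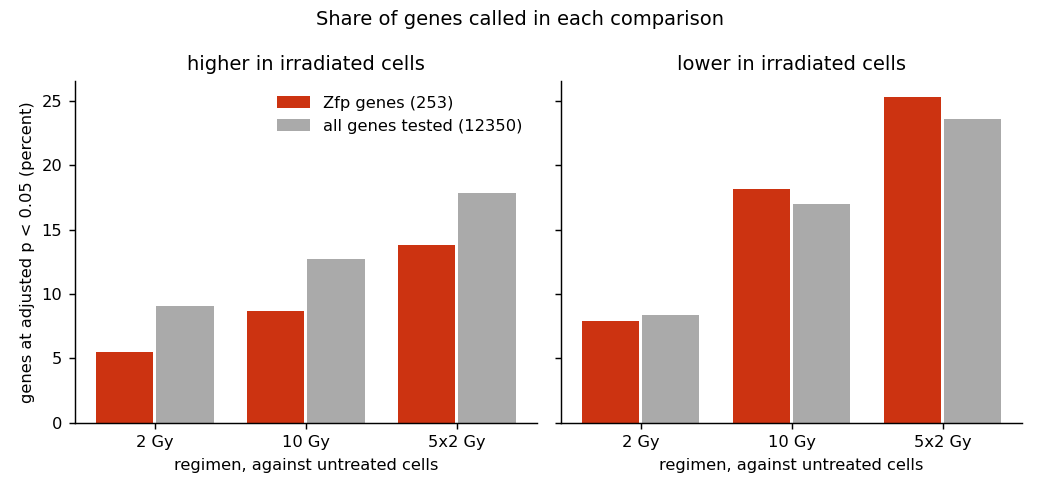
Percent of genes past an adjusted p of 0.05 (limma) in each regimen against untreated cells, with the Zfp genes (red) left of all genes tested (grey); genes higher in irradiated cells stand in the left panel and lower ones in the right. Fewer Zfp genes than genes in general were higher, 13.8% against 17.9% after 5x2 Gy, and the shares that were lower lay close together. With slide as a fixed block, the order of the higher shares turned only after 2 Gy, to 27.3% against 19.2% of all genes. In that fit the lower shares lay further apart, at 35.2% against 22.6% after 5x2 Gy.

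Fitting slide changed these counts. Only 10 Gy had arrays on both slides, so the fixed slide term is the difference between its replicates. An effect of slide thus cannot be told apart from a difference between the 10 Gy replicates, and the fixed block carries that difference into the other regimens. With slide as a fixed block, 69 Zfp genes were higher and 25 lower after 2 Gy (27.3% and 9.88%, against 19.2% and 15.3% of all genes). The split and the order of the shares that were higher thus turned. In the same fit 44 were higher and 87 lower after 10 Gy (17.4% and 34.4%, against 20.7% and 30% of all genes). After 5x2 Gy 27 were higher and 89 lower (10.7% and 35.2%, against 16% and 22.6% of all genes), so that the share that fell was above that of all genes. With slide as a random block (correlation 0.712) none passed after 2 Gy, where 0.0486% of all genes were higher and 0.0972% lower. The random block gave 5 higher and 14 lower after 10 Gy (1.98% and 5.53%, against 5.05% and 6.02% of all genes) and 3 and 17 after 5x2 Gy (1.19% and 6.72%, against 2.71% and 3.55%). Median centring in place of loess gave 32 higher and 11 lower after 2 Gy (12.6% and 4.35%, against 23.7% and 4.46% of all genes), with the median of all genes moved up by 0.15. Scaling between arrays gave 37 and 31 (14.6% and 12.3%, against 15.8% and 15.6%). Leaving out a 2 Gy array left 4 to 17 calls after 2 Gy (1.58% to 6.72%, against 3.04% to 7.32% of all genes). Without 10 Gy replicate 1, 43 rose and 44 fell after 10 Gy (17% and 17.4%, against 16.1% and 20.2% of all genes), and without 10 Gy replicate 2, 29 rose and 104 fell (11.5% and 41.1%, against 19.5% and 28.4%). A fit that leaves 10 Gy with 1 array takes its spread from the other regimens and assumes that the lone array varies like them, here and for every gene given without a 10 Gy array.

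As a group the Zfp genes lay at or slightly below 0. Their median log2 difference was 0.0067 after 2 Gy, -0.11 after 10 Gy and -0.07 after 5x2 Gy, against -0.0023 (2 Gy), -0.06 (10 Gy) and -0.02 (5x2 Gy) for all genes tested. Set against other genes of like signal, the differences of medians were 0.0035 after 2 Gy, -0.06 after 10 Gy and -0.07 after 5x2 Gy. The 2 Gy arrays had Zfp medians of 0.03, -0.03 and 0.01, and the 5x2 Gy arrays of -0.08, -0.06 and -0.07. On the 10 Gy arrays the medians were -0.21 for replicate 1, where 33.6% of the Zfp genes were above 0 against 44.7% of all genes, and -0.02 for replicate 2, where 48.2% were above 0 against 47.6%. The 10 Gy shift is thus that of 1 array: without replicate 1, the median minus that of genes of like signal was 0.0049 after 10 Gy, and without replicate 2 it was -0.19. The 3 arrays of 5x2 Gy lay close together, though 67 of the 253 genes had no irradiated signal above background on any of them.

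**Figure D2:**
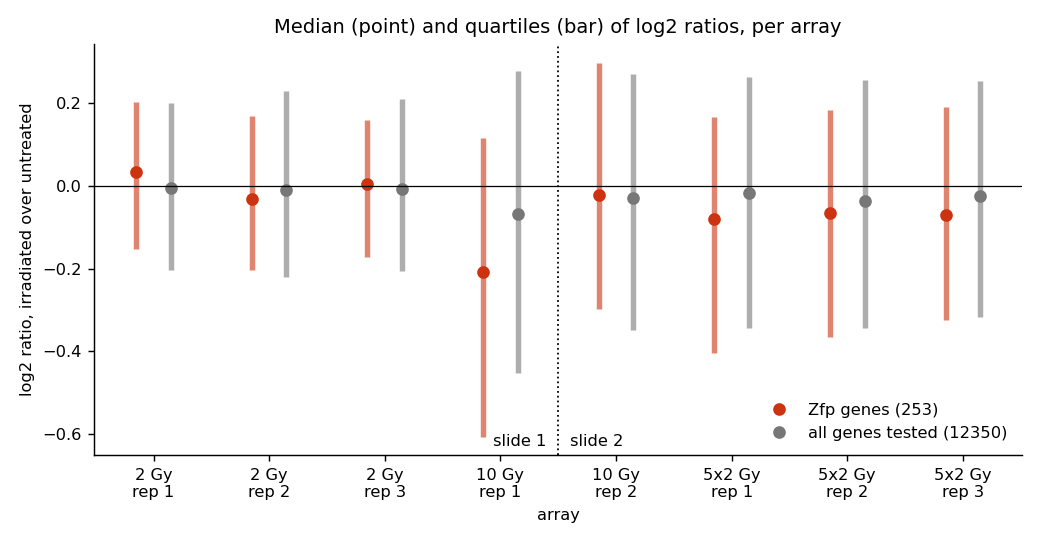
Median (point) and quartiles (bar) of the log2 ratio, irradiated over untreated, on each of the 8 arrays for the 253 Zfp genes (red) and all 12350 genes tested (grey), with a dotted line between slides. On 10 Gy replicate 1 the Zfp median is -0.21, below that of every other array.

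In 5 equal bins of all genes by mean signal, numbered from low to high, the shift after 5x2 Gy was present in bins 2 to 5. The median of the Zfp genes was -0.08 in bin 2 and -0.08 in bin 3, against -0.01 and 0.02 for other genes there, and -0.05 against -0.0026 in bin 4. In bin 1 it was -0.03, against -0.07 for other genes. The 8 Zfp genes of bin 5 had a median of -0.41 after 5x2 Gy, against -0.03 for the other genes there, a value that rests on few genes.

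**Figure D3:**
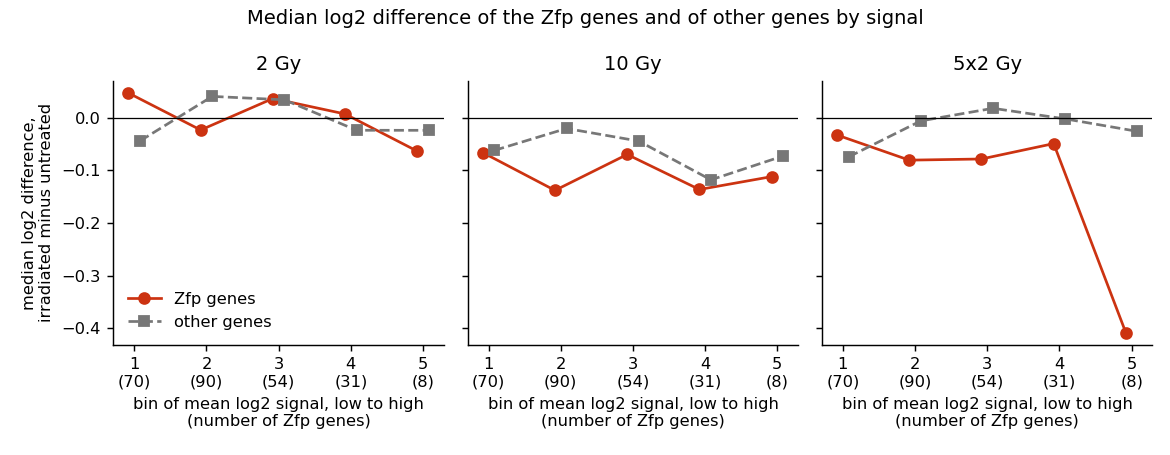
Median log2 difference of Zfp genes (red circles) and other genes (grey squares) in 5 equal bins of all genes by mean log2 signal, 1 panel per regimen; the number of Zfp genes in each bin is given under the axis. After 5x2 Gy the Zfp medians are below those of other genes from bin 2 up, and bin 5 holds 8 Zfp genes.

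Low signal limits what can be said of many of them. Between 65.6% and 71.1% of the 253 genes were above background in the irradiated channel after 5x2 Gy. After 10 Gy the shares were 70.8% and 80.6%, and after 2 Gy they were 90.9% to 95.3%. In the untreated channel the range was 88.5% to 95.7% over the 8 arrays. The negative controls moved too: their robust SD in the irradiated channel was 37.8 to 50.3 intensity units on slide 2, against 19.9 to 37.6 on slide 1, and in the untreated channel it was 16.3 to 26.8 on all arrays. The part of this in the lost detection was not tested. Genes not above background in irradiated cells on any array of a regimen numbered 10 after 2 Gy, 35 after 10 Gy and 67 after 5x2 Gy. In 1, 4 and 5 of these the untreated side was not above background either, and for the others a decrease is only a bound, given as a fold of at least some size. After 5x2 Gy the bound was above 1-fold for 9 of 62. Genes that were a bound on either side were also set at that bound, or at 0 where there was none above 1-fold. The family median was then 0.0042 after 2 Gy, -0.06 after 10 Gy and 0 after 5x2 Gy. Values set at 0 pull a median towards 0, and this was not done for all genes. Genes with no irradiated signal above background made up none of the calls after 2 Gy, 11 of 68 after 10 Gy and 28 of 99 after 5x2 Gy. Leaving out genes that were a bound on either side, 11 rose and 20 fell after 2 Gy, 21 and 35 after 10 Gy, and 32 and 38 after 5x2 Gy. The same cut was not made for all genes, so these counts cannot be set beside the shares of all genes given above. Zfp125, Zfp329, Zfp420 and Zfp932 had no irradiated signal above background on any 10 Gy or 5x2 Gy array. They passed the filter only with the untreated channel, so their place among the kept genes is not independent of their decreases.

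Of 12 genes listed as linked to p53 or DNA damage, 11 were measured, and Zfp385a and Zfp365 were those that rose. After 2 Gy none of the list rose and 1 fell, after 10 Gy 2 rose and none fell, and after 5x2 Gy 2 rose and 2 fell, where 9.05%, 12.7% and 17.9% of all genes rose in that order. The list medians were -0.07, -0.08 and -0.02 in that order of regimens, against -0.0023, -0.06 and -0.02 for all genes. Zfp385a is a p53 target, also called Hzf, whose protein binds p53 and steers it towards cell cycle arrest genes. Its log2 ratios were 0.76, 1.01 and 1.12 on the 2 Gy arrays, 3.60 and 1.43 on the 10 Gy arrays, and 0.90, 0.73 and 1.01 on the 5x2 Gy arrays. All 8 arrays were thus above 0, and 10 Gy replicate 1 stood far above the rest. The mean after 10 Gy was 2.52 ± 0.37 (SE, n = 2; 5.72-fold, limma adjusted p = 0.00144), the largest increase among the Zfp genes. After 5x2 Gy it was 0.88 ± 0.30 (n = 3, adjusted p = 0.0427) and after 2 Gy 0.96 ± 0.30 (n = 3, adjusted p = 0.0563), so the 2 Gy value did not pass, and the 5x2 Gy call was kept in 11 of 20 alternatives. On 10 Gy replicate 2 alone the value was 1.43. The other kept probes of Zfp385a gave means of 0.67 and 0.98 after 10 Gy of -0.08 and 0.35 after 5x2 Gy, and of -0.19 and 0.22 after 2 Gy, so that the increase after 10 Gy was the one all probes showed.

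Zfp365 has a human counterpart, ZNF365, known as a p53 target that helps keep telomeres and fragile sites intact. It had log2 ratios of 0.23, 0.21 and 0.05 after 2 Gy, 0.92 and 0.89 after 10 Gy, and 0.39, 0.80 and 0.60 after 5x2 Gy. Every 10 Gy and 5x2 Gy array lay above every 2 Gy array. The means were 0.17 ± 0.10 after 2 Gy (adjusted p = 0.276), 0.91 ± 0.12 after 10 Gy (1.88-fold, adjusted p = 0.000964) and 0.60 ± 0.10 after 5x2 Gy (1.51-fold, adjusted p = 0.00176). Zfp451, whose human counterpart ZNF451 is a SUMO ligase, fell after 2 Gy to -0.58 ± 0.11 (arrays -0.48, -0.81 and -0.43, adjusted p = 0.00854). It stood at -0.09 ± 0.13 after 10 Gy (adjusted p = 0.654) and fell to -0.35 ± 0.11 after 5x2 Gy (adjusted p = 0.0282). Its other probes gave -0.88 and 0.24 after 5x2 Gy, and so disagreed in sign. Zfp420, a KRAB protein that restrains p53, was at -0.34 ± 0.09 after 5x2 Gy (adjusted p = 0.0151) with no irradiated signal above background, so that no fold is given. The others of the list (Zfp148, Zfp281, Zfp346, Zfp384, Zfp423, Zfp668 and Zfp830) did not pass in any regimen, with means from -0.61 (Zfp148, 10 Gy) to 0.30 (Zfp830, 10 Gy).

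Zfp688 rose after every regimen. Its log2 ratios were 0.95, 0.93 and 0.97 after 2 Gy, 2.01 and 1.23 after 10 Gy, and 0.62, 0.93 and 0.81 after 5x2 Gy. The 2 Gy arrays lay close together, and both 10 Gy arrays stood above all others, but no difference between regimens passed the test. Its means were 0.95 ± 0.14 after 2 Gy (1.93-fold, n = 3, adjusted p = 0.00309), 1.62 ± 0.17 after 10 Gy (3.07-fold, n = 2, adjusted p = 0.000437) and 0.79 ± 0.14 after 5x2 Gy (1.72-fold, n = 3, adjusted p = 0.00211). Another probe of the gene gave 0.72 after 2 Gy, 1.65 after 10 Gy and 0.80 after 5x2 Gy, close to the brightest. The p53 half-site, the core sequence that p53 reads, was looked for in the promoters of these 3 genes, which rose most after 10 Gy, on both strands of the windows from 250 bases before to 50 bases after their first annotated start. It was found in none of the 3. The windows are shown because the genes moved together after 10 Gy, with capitals marking CCGGAAG, the core of an ETS family motif, on either strand. They are RefSeq sequences of build GRCm38.p6: Zfp385a lies at chr15:103340037-103340336, minus strand, Zfp688 at chr7:127421985-127422284, minus strand, and Zfp365 at chr10:67912613-67912912, minus strand.
Zfp385a: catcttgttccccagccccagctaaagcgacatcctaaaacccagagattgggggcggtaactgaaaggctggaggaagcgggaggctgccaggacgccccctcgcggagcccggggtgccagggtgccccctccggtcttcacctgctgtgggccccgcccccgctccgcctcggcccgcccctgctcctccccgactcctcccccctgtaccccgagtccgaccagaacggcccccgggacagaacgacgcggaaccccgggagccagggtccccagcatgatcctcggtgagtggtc
Zfp688: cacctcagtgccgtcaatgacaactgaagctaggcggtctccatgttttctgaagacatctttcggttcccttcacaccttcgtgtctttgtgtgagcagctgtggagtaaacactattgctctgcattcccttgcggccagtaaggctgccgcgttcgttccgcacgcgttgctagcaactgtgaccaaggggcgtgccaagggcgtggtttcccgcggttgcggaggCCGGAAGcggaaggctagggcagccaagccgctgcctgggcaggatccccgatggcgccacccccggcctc
Zfp365: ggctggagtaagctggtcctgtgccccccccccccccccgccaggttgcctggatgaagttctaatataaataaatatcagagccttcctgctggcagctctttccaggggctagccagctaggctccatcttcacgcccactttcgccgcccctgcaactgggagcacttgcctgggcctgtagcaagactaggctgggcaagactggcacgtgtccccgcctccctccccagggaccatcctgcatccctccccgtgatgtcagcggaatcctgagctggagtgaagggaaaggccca
In Zfp688 the motif begins 21 bases before the start, and the windows of Zfp385a and Zfp365 hold none. The windows have 23 CpG in Zfp385a, 22 in Zfp688 and 8 in Zfp365.

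Of the 4 genes of the ZFP36 family, whose proteins bind AU-rich mRNA elements and speed decay of the mRNA, 3 were measured. None passed after 2 Gy, 1 rose after 10 Gy, and 1 rose and 1 fell after 5x2 Gy. Zfp36l1 had log2 ratios of -0.04, -0.27 and 0.03 after 2 Gy, 0.76 and 0.36 after 10 Gy, and 0.33, 0.75 and 0.44 after 5x2 Gy. All arrays of 10 Gy total dose were above all 2 Gy arrays. The mean was -0.09 ± 0.12 after 2 Gy (adjusted p = 0.614), and Zfp36l1 rose after 10 Gy by 0.56 ± 0.15 (1.48-fold, adjusted p = 0.0183) and after 5x2 Gy by 0.51 ± 0.12 (1.42-fold, adjusted p = 0.00825). Without 10 Gy replicate 1 the 10 Gy value was 0.36 and did not pass (adjusted p = 0.103), and a second probe gave 0.14 after 10 Gy and 0.13 after 5x2 Gy. The test of the difference did not pass: 0.66 ± 0.19 for 10 Gy over 2 Gy (adjusted p = 0.0937) and 0.60 ± 0.17 for 5x2 Gy over 2 Gy (adjusted p = 0.0792). Zfp36l2 fell after 5x2 Gy by 0.44 ± 0.16 on the log2 scale (adjusted p = 0.0481) and stood at -0.36 ± 0.16 after 2 Gy (adjusted p = 0.147). With slide as a fixed block the 5x2 Gy value of Zfp36l2 was 0.012 (adjusted p = 0.958). Zfp36, which encodes tristetraprolin, was at -0.05, 0.15 and -0.07 after 2, 10 and 5x2 Gy, with arrays on both sides of 0 and adjusted p of 0.591 to 0.838. Among 33 measured genes of mRNA deadenylation and decay, the machinery that ZFP36 proteins recruit, 1 rose and 4 fell after 2 Gy, 1 and 4 after 10 Gy, and 4 and 10 after 5x2 Gy, where 9.05% of all genes rose and 8.34% fell after 2 Gy, 12.7% and 17.0% after 10 Gy, and 17.9% and 23.6% after 5x2 Gy.

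Genes of RNA, ribosome and housekeeping roles had no member that rose: of 13 measured, 5 fell after 2 Gy, 5 after 10 Gy and 6 after 5x2 Gy, where 8.34%, 17.0% and 23.6% of all genes fell. Taking the mean of probes ended the 2 Gy calls of Zfp106, Zfp207 and Zfp330. It also ended the 10 Gy calls of Zfp106 and Zfp330 and the 5x2 Gy calls of Zfp106, Zfp330 and Zfp593. Slide as a fixed block ended the 2 Gy calls of Zfp91, Zfp106, Zfp207 and Zfp330 and the 5x2 Gy call of Zfp593. The list medians were -0.28 after 2 Gy, -0.09 after 10 Gy and -0.33 after 5x2 Gy, against -0.0023, -0.06 and -0.02 for all genes in the same order. Zfp91, a ubiquitin ligase that acts on NF-κB-inducing kinase in human cells, had log2 ratios of -0.62, -0.82 and -0.48 after 2 Gy, -1.52 and -0.97 after 10 Gy, and -0.67, -0.96 and -0.41 after 5x2 Gy. Every array was below 0, and both 10 Gy arrays were the lowest. It fell after 2 Gy to -0.64 ± 0.14 (adjusted p = 0.014), after 10 Gy to -1.24 ± 0.17 (2.36-fold lower, adjusted p = 0.00099) and after 5x2 Gy to -0.68 ± 0.14 (adjusted p = 0.00418). The other probes of Zfp91 were also below 0, at -0.65 and -0.04 after 10 Gy and at -0.16 and -0.09 after 5x2 Gy, and thus nearer to 0 than the brightest. Zfp207, a spindle protein that carries Bub3 to kinetochores, had -0.41, -0.29 and -0.21 after 2 Gy, -0.60 and -0.58 after 10 Gy, and -0.58, -0.82 and -0.62 after 5x2 Gy. The 2 Gy arrays were those nearest to 0. Its means were -0.30 ± 0.09 (adjusted p = 0.0484), -0.59 ± 0.11 (adjusted p = 0.00435) and -0.68 ± 0.09 (adjusted p = 0.000669) after 2, 10 and 5x2 Gy. With median centring instead of loess the Zfp207 values after 2 and 10 Gy turned to 0.26 and 0.06, and a second probe gave -0.26, -0.53 and -0.15 after 2, 10 and 5x2 Gy.

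Zfp106, an RNA-binding protein that motor neurons of mice need, fell in all regimens, with means of -0.40 ± 0.11 after 2 Gy (adjusted p = 0.0316), -0.81 ± 0.13 after 10 Gy (adjusted p = 0.00218) and -0.67 ± 0.11 after 5x2 Gy (adjusted p = 0.0014). Its 5x2 Gy arrays read -0.68, -0.67 and -0.67. Of its 3 other probes, 1 gave -0.32 after 5x2 Gy and the others -0.04 and 0.02, so the decrease differed between probes. Zfp706, a small zinc finger protein, had -0.58, -0.50 and -0.43 after 2 Gy, -0.54 and -0.51 after 10 Gy, and -0.93, -0.74 and -0.67 after 5x2 Gy. Its mean after 5x2 Gy was -0.78 ± 0.09 (1.72-fold lower, adjusted p = 0.000379), below all arrays of the other regimens, while a second probe gave 0.15. Zfp330, a nucleolar protein, fell by 0.57 ± 0.10 after 5x2 Gy (adjusted p = 0.00209), and Zfp593, a pre-ribosome factor in yeast, by 0.32 ± 0.11 (adjusted p = 0.0434). Zfp330 also passed after 2 Gy (-0.33, adjusted p = 0.0483) and after 10 Gy (-0.40, adjusted p = 0.0329), where its second probe read 0.16. A second probe gave 0.06 for Zfp330 and 0.0060 for Zfp593 after 5x2 Gy, and with the mean of probes neither passed (-0.25 for Zfp330, adjusted p = 0.0548, and -0.16 for Zfp593, adjusted p = 0.249). Zfp598, the ligase that senses collided ribosomes, Zfp622, a factor of large ribosomal subunit maturation, Zfp143, Zfp318, Zfp326, Zfp346 and Zpr1 (Zfp259 on the arrays) did not pass in any regimen. Zfp622 and Zpr1 split the 10 Gy arrays, at 1.26 and -0.18 for Zfp622 and at 0.83 and -0.30 for Zpr1.

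Of 7 genes listed for imprint control and retroelement silencing, 5 were measured. None passed after 2 Gy, and 2 fell and none rose after 10 Gy and after 5x2 Gy, where 17.0% and 23.6% of all genes fell. Zfp445, a KRAB protein that guards imprints in mouse and human, had -0.27, -0.14 and -0.04 after 2 Gy, -0.62 and -0.80 after 10 Gy, and -0.70, -0.75 and -0.77 after 5x2 Gy. The 2 Gy arrays did not overlap with the others, but no difference between regimens passed the test. It fell after 10 Gy to -0.71 ± 0.11 (adjusted p = 0.00172) and after 5x2 Gy at least 1.38-fold (adjusted p = 0.000431), where no irradiated signal was above background. Zfp932, which silences endogenous retroviruses in mouse cells, fell at least 1.19-fold after 10 Gy (arrays -0.91 and -0.69, adjusted p = 0.00201). Its 5x2 Gy value of -0.59 (adjusted p = 0.00227) has no irradiated signal above background and allows no bound. Zfp57, the best known imprint keeper, stood at 0.19, 0.11 and 0.17 after 2, 10 and 5x2 Gy, Zfp809, which silences murine leukaemia virus, at -0.15, 0.15 and -0.10, and Zfp708 at -0.12, -0.32 and 0.08, none past the test. Of 35 measured genes of the corepressor complex these proteins recruit and of heterochromatin, none of them a Zfp gene, 1 rose and 3 fell after 2 Gy, none rose and 15 fell after 10 Gy, and 5 rose and 12 fell after 5x2 Gy, where 8.34%, 17.0% and 23.6% of all genes fell. The medians of these 35 were -0.22, -0.31 and -0.12, against -0.0023, -0.06 and -0.02 for all genes.

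Of 11 measured stem cell and lineage factors, 1 rose after 2 Gy, 2 after 10 Gy and 2 after 5x2 Gy, and none fell, where 9.05%, 12.7% and 17.9% of all genes rose. Their medians were -0.0038, 0.12 and 0.11 after 2, 10 and 5x2 Gy, against -0.0023, -0.06 and -0.02 for all genes. Zfp704 had 0.16, 0.34 and 0.28 after 2 Gy, 0.59 and 0.36 after 10 Gy, and 0.82, 0.82 and 0.89 after 5x2 Gy, where it rose by 0.84 ± 0.09 (1.79-fold, adjusted p = 0.000263). The 5x2 Gy arrays were the highest, yet its other probe gave -0.28 there, -0.47 after 10 Gy and -0.21 after 2 Gy, so the direction rests on 1 probe. Zfp219, a partner of Sox9 in cartilage cells, rose after 2 Gy (0.41, 0.67 and 0.52, mean 0.53 ± 0.13, adjusted p = 0.0212). With slide as a fixed block Zfp219 was at 0.20 (adjusted p = 0.249) and with the mean of its probes at 0.37 (adjusted p = 0.0553), neither past the test. Zfp42, the embryonic stem cell marker Rex1, had no irradiated signal above background after 5x2 Gy and stood at -0.14, 0.12 and 0.19 after 2, 10 and 5x2 Gy, none past the test. The factors Zfp296, Zfp322a and Zfp462 again split the 10 Gy arrays: Zfp296 read 1.24 and -0.0021, Zfp322a -1.18 and 0.16, and Zfp462 -1.62 and 0.03.

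**Figure D4:**
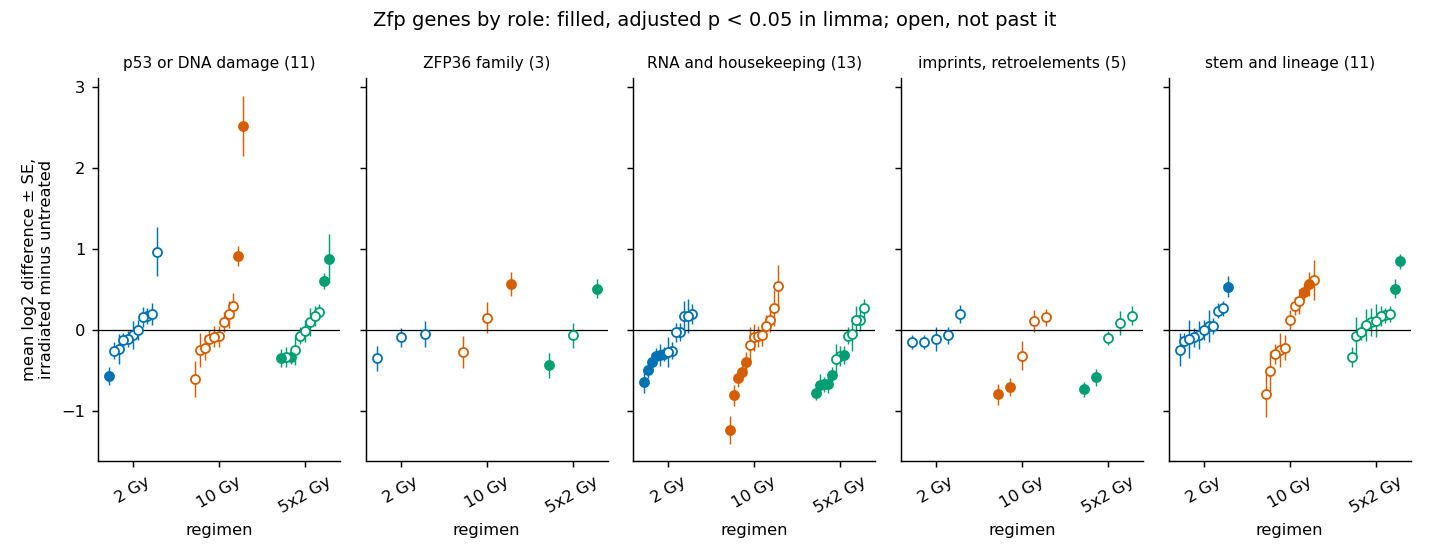
Mean log2 difference ± SE (limma), irradiated minus untreated, of each measured Zfp gene of 5 role lists by regimen, sorted by value within a regimen; filled points pass an adjusted p of 0.05 and open ones do not, and the number of genes stands over each panel. Zfp385a at 2.52 after 10 Gy stands alone, and no filled point of the RNA and housekeeping panel is above 0.

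Outside the lists, Zfp131, a BTB domain transcription factor, fell after every regimen. It had log2 ratios of -0.49, -0.71 and -0.75 after 2 Gy, -1.43 and -0.94 after 10 Gy, and -0.92, -0.95 and -1.10 after 5x2 Gy. No 2 Gy array was as low as any array of the other regimens, but no difference between regimens passed the test. The means were -0.65 ± 0.11 (adjusted p = 0.00606), -1.18 ± 0.14 (2.27-fold lower, adjusted p = 0.00058) and -0.99 ± 0.11 (1.99-fold lower, adjusted p = 0.00036) after 2, 10 and 5x2 Gy. Zfp930 had -0.56, -1.01 and -0.74 after 2 Gy, -1.19 and -0.72 after 10 Gy, and -1.31, -1.12 and -1.15 after 5x2 Gy, where it fell to -1.19 ± 0.12 (2.28-fold lower, adjusted p = 0.000222) and was above background in irradiated cells on 2 of 3 arrays. Zfp442 read -0.46, -0.77 and -0.62 after 2 Gy, -1.42 and -0.68 after 10 Gy, and -1.01, -0.95 and -1.13 after 5x2 Gy, with means of -1.05 ± 0.17 after 10 Gy (adjusted p = 0.00188) and -1.03 ± 0.14 after 5x2 Gy (adjusted p = 0.000622). Both genes were below 0 on all 8 arrays, with the 10 Gy pair far apart.

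Zfp934 and Zfp951 fell after every regimen and had lower values on every 5x2 Gy array than on any array of a single dose, but no difference between regimens passed the test. Zfp934 had -0.42, -0.64 and -0.54 after 2 Gy, -0.51 and -0.57 after 10 Gy, and -0.89, -1.32 and -1.02 after 5x2 Gy (mean -1.07 ± 0.10, 2.11-fold lower, adjusted p = 0.000202). Zfp951 had -0.40, -0.58 and -0.58 after 2 Gy, -0.52 and -0.43 after 10 Gy, and -1.0, -1.11 and -0.96 after 5x2 Gy (mean -1.02 ± 0.09, 2.03-fold lower, adjusted p = 0.00016). The difference for 5x2 Gy against 2 Gy was -0.54 ± 0.15 in Zfp934 (adjusted p = 0.0771) and -0.50 ± 0.12 in Zfp951 (adjusted p = 0.064). That for 5x2 Gy against 10 Gy was -0.54 ± 0.16 in Zfp934 (adjusted p = 0.215) and -0.55 ± 0.14 in Zfp951 (adjusted p = 0.197). Zfp958 fell at least 1.36-fold after 5x2 Gy (adjusted p = 0.000205), and Zfp433 at least 1.46-fold (adjusted p = 0.000186), neither above background in irradiated cells there. After 10 Gy, Zfp280d read -1.40 and -0.56 (mean -0.98 ± 0.17, adjusted p = 0.003), and Zfp827, whose human counterpart brings the NuRD complex to telomeres, read -1.04 and -0.78 (mean -0.91 ± 0.12, adjusted p = 0.000964). The calls of Zfp960 (-1.69 and -0.15, adjusted p = 0.0352) and Zfp770 (-1.41 and -0.26, adjusted p = 0.0212) rested on replicate 1: without it the values were -0.15 and -0.26 and did not pass (adjusted p = 0.503 and 0.214).

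Several other genes rose, some of them after every regimen and some after a single one. Zfp358 had 0.80, 0.65 and 0.75 after 2 Gy, 0.24 and 0.80 after 10 Gy, and 0.80, 0.98 and 0.60 after 5x2 Gy, with means of 0.73 ± 0.12 (adjusted p = 0.00503), 0.52 ± 0.15 (adjusted p = 0.0272) and 0.79 ± 0.12 (adjusted p = 0.0012). Zfp874a had 0.43, 0.34 and 0.35 after 2 Gy, 0.74 and 0.99 after 10 Gy, and 0.80, 0.71 and 0.73 after 5x2 Gy. Its 2 Gy arrays were the lowest, but no difference between regimens passed the test. The means of Zfp874a were 0.37 ± 0.09 (adjusted p = 0.0205), 0.87 ± 0.11 (adjusted p = 0.000734) and 0.75 ± 0.09 (adjusted p = 0.000398). Zfp444 rose after 2 Gy (0.73 ± 0.17, adjusted p = 0.017) and after 5x2 Gy (0.86 ± 0.17, adjusted p = 0.00337), while its 10 Gy arrays read -0.02 and 0.93. Zfp947 rose by 0.76 ± 0.11 after 2 Gy (adjusted p = 0.00329) and by 0.81 ± 0.11 after 5x2 Gy (adjusted p = 0.000744), with its untreated signal above background on 1 array of each of these regimens. Zfp30 rose at least 1.94-fold after 5x2 Gy (arrays 1.52, 0.72 and 0.95, adjusted p = 0.0153) with no untreated signal above background, and its 10 Gy arrays read -0.32 and 1.46. With slide as a fixed block the 5x2 Gy value of Zfp30 was 0.17 and did not pass (adjusted p = 0.597). Zfp580 rose by 0.66 ± 0.10 after 2 Gy (adjusted p = 0.00425), after 10 Gy by 0.46 ± 0.13 (adjusted p = 0.0239) and after 5x2 Gy by 0.34 ± 0.10 (adjusted p = 0.0284). Zfp677 rose at least 1.39-fold after 2 Gy (adjusted p = 0.0106) and at least 1.39-fold after 10 Gy (adjusted p = 0.00283). It had no untreated signal above background on any array. On the untreated channel alone, Zfp30, Zfp677 and Zfp947 would not have reached the 4 arrays of the filter. Their place among the kept genes is thus not independent of these rises. After 10 Gy, Zfp623 read 0.97 and 0.40 (mean 0.69 ± 0.16, adjusted p = 0.011) and Zfp787 1.10 and 0.12, and without replicate 1 the call was lost for Zfp787 (0.12, adjusted p = 0.468) and for Zfp623 (0.40, adjusted p = 0.0702).

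**Figure D5:**
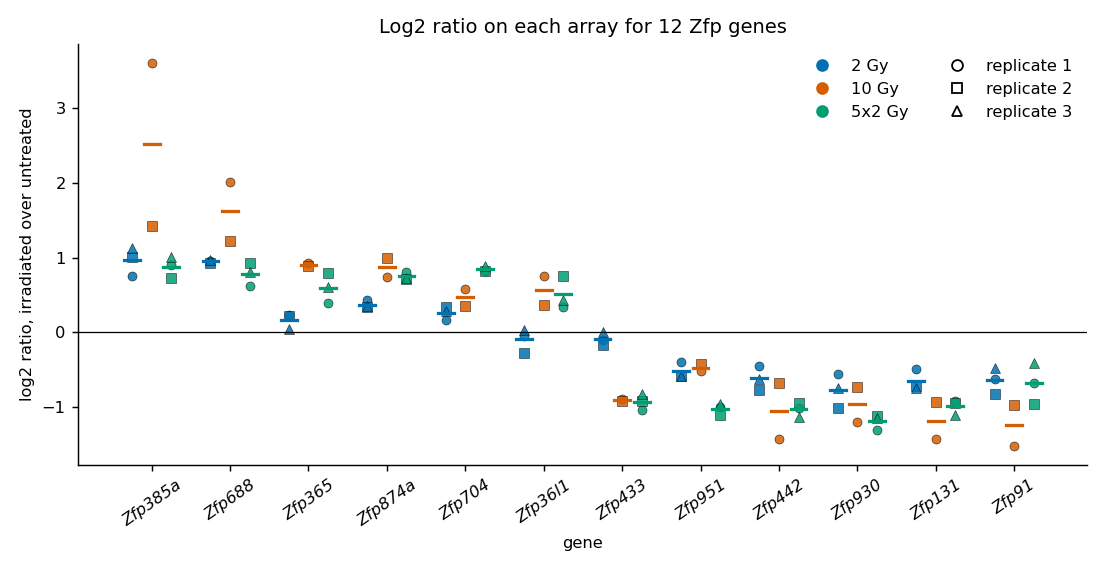
Log2 ratio, irradiated over untreated, on each array for 12 Zfp genes, coloured by regimen and shaped by replicate number, with the regimen mean as a line. Zfp433 lies between -0.17 and 0.01 after 2 Gy and between -1.04 and -0.83 on the other arrays, and 10 Gy replicate 1 is the highest point of Zfp385a and the lowest of Zfp91.

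The promoters of genes that fell were set beside those above. Of the 253 genes, 208 matched a RefSeq promoter window by symbol. The CCGGAAG motif was in 6 of 15 windows of genes that fell after 2 Gy (40%), 10 of 36 after 10 Gy (27.8%) and 14 of 51 after 5x2 Gy (27.5%). It was in 2 of 12 windows of genes that rose after 2 Gy (16.7%), 4 of 19 after 10 Gy (21.1%) and 3 of 28 after 5x2 Gy (10.7%). Of all 208 windows, 19.2% held it, against 9.12% of 27025 promoter windows of genes of any name. Those 27025, called all windows below, are not limited to the genes tested on the arrays. These shares are descriptions, and a window with or without a match says nothing about a factor. The sequence CCAAT was in 50% of Zfp windows against 37.9% of all, AAGATGGC, a YY1 core, in 7.21% against 2.88%, and ACTACAA, part of the motif of Zfp143 itself, in 6.25% against 3.45%. TTTGAA was in 15.4% against 18.1%, and the p53 half-site in 8.17% against 8.37%, all motifs being read on both strands. Zfp windows held a median of 14 CpG, against 7 in all windows. The windows of Zfp91, Zfp951 and Zfp433 are shown as genes that fell and hold CCGGAAG, again in capitals, with the reverse complement CTTCCGG where it lies on the other strand: Zfp91 lies at chr19:12796074-12796373, minus strand, Zfp951 at chr5:104859978-104860277, minus strand, and Zfp433 at chr10:81704575-81704874, plus strand.
Zfp91: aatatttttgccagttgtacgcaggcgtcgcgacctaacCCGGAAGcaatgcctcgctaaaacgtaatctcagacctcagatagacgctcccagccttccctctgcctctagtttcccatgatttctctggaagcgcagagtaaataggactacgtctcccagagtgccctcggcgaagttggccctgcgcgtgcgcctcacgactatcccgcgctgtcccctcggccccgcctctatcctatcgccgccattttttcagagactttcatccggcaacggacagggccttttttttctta
Zfp951: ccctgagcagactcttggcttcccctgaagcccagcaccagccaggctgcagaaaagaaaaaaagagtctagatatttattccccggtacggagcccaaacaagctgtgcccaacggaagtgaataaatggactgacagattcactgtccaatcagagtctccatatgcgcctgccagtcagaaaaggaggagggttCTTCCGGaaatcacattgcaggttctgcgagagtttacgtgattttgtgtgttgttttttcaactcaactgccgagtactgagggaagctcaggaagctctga
Zfp433: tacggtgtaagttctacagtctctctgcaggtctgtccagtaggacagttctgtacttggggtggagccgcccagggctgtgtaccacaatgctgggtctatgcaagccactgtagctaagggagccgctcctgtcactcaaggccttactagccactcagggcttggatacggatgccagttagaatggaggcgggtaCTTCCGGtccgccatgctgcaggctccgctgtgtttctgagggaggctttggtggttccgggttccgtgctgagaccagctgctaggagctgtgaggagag
The motif begins 211 bases before the start in Zfp91, 53 in Zfp951 and 51 in Zfp433.

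Between regimens few Zfp genes differed. In the moderated F test for any difference among the 3 regimens, 3 of the 253 passed (1.19%), against 1.58% of all genes: Zfp125, Zfp433 and Zfp944. For 10 Gy against 2 Gy, 1 was higher and 4 were lower, where 1.13% of all genes were higher and 1.66% lower. Between 5x2 Gy and 2 Gy, none was higher and 5 were lower after 5x2 Gy, where 0.405% of all genes were higher and 1.05% lower. No Zfp gene passed for 5x2 Gy against 10 Gy in limma, where 0% of all genes passed. These comparisons share arrays. Arrays of Zfp91, Zfp207, Zfp704 and Zfp706 also lay apart between some regimens, but none of these differences passed. With slide as a fixed block, 10 Gy against 2 Gy is read within slide 1, from 1 array of 10 Gy against 3 of 2 Gy, and called 92 Zfp genes, 19 higher and 73 lower (36.4%, against 34.3% of all genes), with the spread taken from the other arrays. In the same fit 5x2 Gy against 10 Gy is read within slide 2, and none passed. Without 10 Gy replicate 2, 5x2 Gy against 10 Gy called 111, 76 higher and 35 lower (43.9%, against 45% of all genes).

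Zfp433 differed from 2 Gy in both larger regimens. It had -0.10, -0.17 and 0.01 after 2 Gy, -0.89 and -0.92 after 10 Gy, and -1.04, -0.92 and -0.83 after 5x2 Gy, so that the 2 Gy arrays stood apart from all others. The difference was -0.82 ± 0.14 for 10 Gy against 2 Gy (adjusted p = 0.0275) and -0.84 ± 0.12 for 5x2 Gy against 2 Gy (adjusted p = 0.0358), and within slide 1 it was -0.80 (adjusted p = 0.00206). Zfp365 was the member higher after 10 Gy than after 2 Gy, by 0.74 ± 0.16 (adjusted p = 0.0431; 0.76 within slide 1, adjusted p = 0.00673). Lower after 10 Gy than after 2 Gy were Zfp827 (-0.83 ± 0.16, adjusted p = 0.0379), Zfp687 (-0.72 ± 0.16, adjusted p = 0.0441) and Zfp90 (-0.69 ± 0.15, adjusted p = 0.0468), with no overlap of arrays in any. Zfp687, which in human cells forms a complex with ZNF592 and ZMYND8, read -0.38 and -0.08 after 10 Gy against 0.60, 0.50 and 0.36 after 2 Gy. Zfp90 read -0.71 and -0.47 after 10 Gy and 0.02, 0.07 and -0.14 after 5x2 Gy, against 0.19, -0.04 and 0.14 after 2 Gy.

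Lower after 5x2 Gy than after 2 Gy were Zfp125 (-0.86 ± 0.15, adjusted p = 0.0366), Zfp944 (-0.73 ± 0.13, adjusted p = 0.0358), Zfp329 (-0.64 ± 0.12, adjusted p = 0.0439) and Zfp644 (-0.60 ± 0.12, adjusted p = 0.0453). Zfp125 had -0.50, -0.46 and -0.53 after 5x2 Gy, -0.38 and -0.02 after 10 Gy, and 0.57, 0.20 and 0.31 after 2 Gy. Zfp644, whose human counterpart works with the G9a histone methyltransferases, had -0.70, -0.76 and -0.75 after 5x2 Gy against -0.17, -0.04 and -0.18 after 2 Gy, with 1 of its other probes near 0 in all regimens. The 2 Gy and 5x2 Gy arrays share no slide, so the difference could not be read within a slide. In the fit with slide as a fixed block, which links them through the 10 Gy arrays, Zfp125 (adjusted p = 0.00504), Zfp433 (0.022) and Zfp329 (0.0403) passed, and Zfp944 (0.107) and Zfp644 (0.0798) did not. With the mean of probes Zfp329 (0.0545) and Zfp644 (0.143) did not pass. Of Zfp125, Zfp433, Zfp944 and Zfp329, no irradiated signal was above background on the 5x2 Gy arrays, so these differences are from a level near background. The smallest p for 5x2 Gy against 10 Gy were those of Zfp746, the Parkin substrate PARIS (0.67 ± 0.15, adjusted p = 0.183), Zfp839 (0.72 ± 0.17, adjusted p = 0.19), Zfp951, Zfp688 (-0.83 ± 0.22, adjusted p = 0.198) and Zfp90 (0.57 ± 0.15, adjusted p = 0.198).

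Zfp genes lie in clusters along the mouse chromosomes, and 252 of the 253 could be placed in gene order. A run was counted where at least 4 of them followed each other, each at most 3 places after the last in the order of coding genes. This gave 11 runs with 70 genes. In the runs 7 rose and 2 fell after 2 Gy, 11 and 10 after 10 Gy, and 16 and 15 after 5x2 Gy, out of 70. Among the 182 outside the runs 6 rose and 18 fell after 2 Gy, 11 and 36 after 10 Gy, and 19 and 48 after 5x2 Gy. Of all genes 9.05% rose and 8.34% fell after 2 Gy, 12.7% and 17.0% after 10 Gy, and 17.9% and 23.6% after 5x2 Gy. Medians were 0.05 in runs and -0.01 outside after 2 Gy, -0.07 and -0.13 after 10 Gy, and -0.05 and -0.07 after 5x2 Gy. A run of 8 on chromosome 7 (Zfp180, Zfp235, Zfp114, Zfp111, Zfp108, Zfp93, Zfp61 and Zfp94) had medians of 0.16, 0.34 and 0.30 after 2, 10 and 5x2 Gy, with 3 genes higher and 1 lower after 10 Gy and 4 higher and 1 lower after 5x2 Gy. A run of 5 on chromosome 6 (Zfp282, Zfp212, Zfp956, Zfp777 and Zfp746) had medians of 0.08, 0.14 and 0.51 and 3 genes higher after 5x2 Gy. On chromosome 9 a run of 5 (Zfp560, Zfp26, Zfp426, Zfp266 and Zfp846) had medians of -0.03, -0.29 and -0.34, with 1 gene lower after 10 Gy and 2 after 5x2 Gy. Neighbours of a run are often close relatives in sequence, and whether a probe also binds a relative's transcript was not tested.

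Probes of a gene did not always agree. Of the 253 genes, 86 had more than 1 kept probe, and in 63 of them the probes differed in sign for at least 1 regimen. Taking the mean of all probes of a gene in place of the brightest ended the 5x2 Gy calls of Zfp385a (0.38, adjusted p = 0.0927), Zfp704 (0.28, adjusted p = 0.0587), Zfp36l1 (0.32, adjusted p = 0.0506) and Zfp106 (-0.25, adjusted p = 0.0905). It also ended the 10 Gy calls of Zfp36l1 (0.35, adjusted p = 0.0883), Zfp106 (-0.37, adjusted p = 0.0613) and Zfp787 (0.29, adjusted p = 0.114). Also lost after 10 Gy were those of Zfp704 (0.0028, adjusted p = 0.989), Zfp330 (-0.12, adjusted p = 0.453) and Zfp61 (0.32, adjusted p = 0.0832). After 2 Gy the calls of Zfp592 (-0.20, adjusted p = 0.388), Zfp106 (-0.20, adjusted p = 0.219), Zfp207 (-0.28, adjusted p = 0.0592) and Zfp330 (-0.30, adjusted p = 0.0536) were lost too. Slide as a fixed block ended the 2 Gy calls of Zfp91 (-0.37, adjusted p = 0.106), Zfp442 (-0.24, adjusted p = 0.16), Zfp106 (-0.24, adjusted p = 0.196), Zfp207 (-0.29, adjusted p = 0.0926) and Zfp330 (-0.22, adjusted p = 0.205). The same block ended the 5x2 Gy calls of Zfp444 (0.38, adjusted p = 0.0665), Zfp451 (-0.23, adjusted p = 0.239) and Zfp593 (-0.17, adjusted p = 0.382). Other zinc finger families were read for comparison, beside all genes, of which 9.05% rose and 8.34% fell after 2 Gy, 12.7% and 17.0% after 10 Gy, and 17.9% and 23.6% after 5x2 Gy. Of 32 Zbtb genes, which carry a BTB domain, 3 rose and 3 fell after 2 Gy, 4 and 8 after 10 Gy, and 5 and 13 after 5x2 Gy. Of 12 Zscan and Zkscan genes, which carry a SCAN domain, 4 rose and none fell after 2 Gy, 5 and none after 10 Gy, and 5 and 1 after 5x2 Gy, with medians of 0.25, 0.28 and 0.29. Of 16 Zc3h genes, with CCCH fingers, 1 rose and 1 fell after 2 Gy, 2 and 5 after 10 Gy, and 2 and 4 after 5x2 Gy. A further 12 genes are named Zfp today but carry another symbol on the arrays and so are not among the 253. The lowest of these after 10 Gy and after 5x2 Gy was Zfp638, listed as Zfml, an RNA-binding protein that silences unintegrated retroviral DNA in human cells, at -0.41 ± 0.09 after 2 Gy (adjusted p = 0.0182), -1.07 ± 0.12 after 10 Gy (adjusted p = 0.000442) and -1.24 ± 0.09 after 5x2 Gy (adjusted p = 0.000105).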

How the data were processed

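Scanner files of 8 arrays were used. Per the file headers, each deposited intensity is the mean pixel signal of a spot in Cy3 or Cy5, quantified with ImaGene 9.0, on a linear scale and without background correction or normalization. The deposited series matrix holds log2 values. Set against the loess ratios computed here without background correction they gave slopes of 0.993 to 0.999, so they are log2 of Cy5 over Cy3, and their medians of -0.0045 to 0.0087 show centring near 0. They served as an alternative. An array has 45220 spots, with 153 negative controls among them.

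Signals were corrected by normexp (offset 50) and normalized by loess within arrays in limma 3.58.1 (R 4.3.3), with control spots at weight 0 and spots of a probe averaged. A probe was above background where it exceeded the negative controls' median by 2.6 of their robust SD. Symbols were updated through RefSeq accessions, which renamed 3 Zfp genes, and the brightest kept probe stood for a gene. One mean per regimen was fitted with lmFit and eBayes, regimens were compared with 0 and with each other, with the Benjamini-Hochberg adjustment made over 12350 genes. Errors are SE of this fit, whose precision the few arrays limit. Like signal means the median of other genes in the same of 10 bins of mean signal. The fit was tested on simulated data with known changes. Spot flags, whose meaning is not given in the sources used here, were not used. A leukocyte marker of the list is not reported here.

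Named were, against untreated cells, up to 10 called genes per direction by fold with the sign of the mean on all arrays of the regimen, between regimens up to 5 per direction without overlap (the 5 of smallest p where none passed), and the role lists. Values given for genes that did not pass, and Zfp638, were added after their values were seen. The members and all lists were chosen with earlier results of these data known. A fold of at least some size sets the measured side against the detection level. Alternatives were no background correction, offset 0, median centring, scaling between arrays, the series matrix, no filter or at least 2 arrays, slide as a fixed or random block, a replicate block, array weights, the mean of probes, and leaving out each array.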

Additional observations from a re-analysis of the deposited data

Results flagged for a closer look

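The effect of irradiation on 9 Zfp genes differed between regimens by the test of the difference itself (limma, adjusted over all genes). After 10 Gy against 2 Gy, Zfp365 was higher by 0.74 on the log2 scale, and Zfp827 (-0.83), Zfp433 (-0.82), Zfp687 (-0.72) and Zfp90 (-0.69) were lower. Each of these 5 calls was kept in 10 or 11 of 20 alternatives. Leaving out any 1 of the 2 Gy or 5x2 Gy arrays, array weights, scaling between arrays and the replicate block each left 0 Zfp genes called for 10 Gy against 2 Gy. In these settings at most 0.211% of all genes passed. After 5x2 Gy against 2 Gy, Zfp125 (-0.86), Zfp433 (-0.84), Zfp944 (-0.73), Zfp329 (-0.64) and Zfp644 (-0.60) were lower, and 9 to 12 of 20 alternatives kept each call. The irradiated signal of Zfp125, Zfp433, Zfp944 and Zfp329 was not above background on the 5x2 Gy arrays, where the negative controls of that channel also spread more widely, and the part of that spread in these differences was not tested.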

How the results depend on the processing

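Of 20 alternatives, 15 kept the count of called Zfp genes to within 1.5 times after 10 Gy and after 5x2 Gy, 9 after 2 Gy, 6 in each comparison with 2 Gy and 19 for 5x2 Gy against 10 Gy; the cause was not tested. Leaving out 1 array left 4 to 85 called Zfp genes after 2 Gy (34 in the main setting), 54 to 133 after 10 Gy (68) and 62 to 148 after 5x2 Gy (99). It left 0 to 92 for 10 Gy against 2 Gy (5), 0 to 74 for 5x2 Gy against 2 Gy (5) and 0 to 111 for 5x2 Gy against 10 Gy (0). Slide as a fixed block called 94 after 2 Gy (37.2%, against 34.5% of all genes) and 131 after 10 Gy (51.8%, against 50.6%). It called 92 for 10 Gy against 2 Gy (36.4%, against 34.3%) and 68 for 5x2 Gy against 2 Gy (26.9%, against 19.4%). Slide as a random block called 0, 19 and 20 after 2, 10 and 5x2 Gy (0%, 7.51% and 7.91%, against 0.146%, 11.1% and 6.26%). That block called 64 for 10 Gy against 2 Gy (25.3%, against 24%). Array weights called 123, 2 and 168 after 2, 10 and 5x2 Gy (48.6%, 0.791% and 66.4%, against 58.4%, 1.72% and 69.3% of all genes). They called 0 for 10 Gy against 2 Gy, where 0.0162% of all genes passed. For 5x2 Gy against 2 Gy they called 126 (49.8%, against 49%). Scaling between arrays called 68 after 2 Gy (26.9%, against 31.4% of all genes). It called 0 for 10 Gy and for 5x2 Gy against 2 Gy, where 0.211% and 0.437% of all genes passed. Median centring called 10 for 10 Gy against 2 Gy (3.95%, against 3.97%) and 16 for 5x2 Gy against 2 Gy (6.32%, against 6.03%). No background correction called 8 for 5x2 Gy against 2 Gy (3.16%, against 1.86%).

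Same-numbered arrays deviated from their group means with correlations of -0.244 to 0.115, so the numbers were not taken as pairs. With the replicate block 19 Zfp genes were called after 2 Gy (7.51%, against 10.9% of all genes) and 36 after 10 Gy (14.2%, against 18.1%). In either comparison with 2 Gy it called 0 Zfp genes and 0% of all genes.

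The family median after 2 Gy was 0.092 with median centring, 0.124 with slide as a fixed block and 0.066 with slide as a random block. After 5x2 Gy it was -0.063 with at least 2 arrays detected, -0.061 with scaling, -0.049 with median centring, -0.061 without background correction, -0.015 with no filter, -0.169 with slide fixed and -0.164 with slide random. For 10 Gy against 2 Gy it reversed to 0.023 without 10 Gy replicate 1 and ranged from -0.199 to 0.023. For 5x2 Gy against 2 Gy it was -0.161 with median centring, -0.035 with no filter, -0.351 with slide fixed and -0.281 with slide random. For 5x2 Gy against 10 Gy it reversed to -0.083 with slide fixed and without 10 Gy replicate 1, in a range of -0.083 to 0.109.

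The median minus that of genes of like signal was 0.085 (slide fixed) and 0.076 (slide random) after 2 Gy, and -0.193 to 0.0049 on leaving out an array after 10 Gy. After 5x2 Gy it was -0.058 with at least 2 arrays, -0.055 with scaling, -0.058 with the mean of probes, -0.015 with no filter, -0.078 with offset 0, -0.132 with slide fixed and -0.119 with slide random, and -0.074 to -0.046 without 1 array. For 10 Gy against 2 Gy it was -0.223 with slide fixed and reversed to 0.0599 without 10 Gy replicate 1, in a range of -0.223 to 0.0599. For 5x2 Gy against 2 Gy it was -0.018 with no filter, -0.351 with slide fixed, -0.269 with slide random and -0.091 to -0.043 without 1 array. For 5x2 Gy against 10 Gy it reversed to -0.078 with slide fixed, in a range of -0.078 to 0.097.

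Of the named genes, Zfp36l2 after 5x2 Gy reversed to 0.012 with slide fixed, and Zfp207 to 0.2645 after 2 Gy and 0.0625 after 10 Gy with median centring. Over 20 alternatives, 358 of the values of 23 genes named after 2 Gy kept direction and call and 101 lost the call; after 10 Gy 461 kept and 78 lost it, and after 5x2 Gy 575 kept and 64 lost it. Dim signal in the irradiated channel limits the decreases after 10 Gy and 5x2 Gy, and 2 or 3 arrays a regimen limit all errors.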

Other observations

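Of the 12 genes named Zfp today that carry another symbol on the arrays, Zfp638 had log2 ratios of -0.40, -0.36 and -0.47 after 2 Gy, -1.23 and -0.92 after 10 Gy, and -1.32, -1.25 and -1.14 after 5x2 Gy, with the 2 Gy arrays apart from all others. A run of 11 Zfp genes on chromosome 13, from Zfp455 to Zfp273, held genes of opposite direction: Zfp874a rose while 4 others fell after 10 Gy, where the run ranged from -0.61 to 0.87. Of the 5 Zfp genes in the run around Zfp688 on chromosome 7 (Zfp768, Zfp747, Zfp764, Zfp688 and Zfp689), 2 rose after 10 Gy and 2 after 5x2 Gy, with medians of 0.28 after 10 Gy and 0.17 after 5x2 Gy.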
